A study of Mus musculus with 13 samples.

Results

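The genes described here are 10 that handle calcium in heart muscle cells: Atp2a2, Pln, Ryr2, Casq1, Casq2, Trdn, Jph2, Hrc, Asph and Slc8a1. They were chosen by gene symbol from the 53278 symbols counted in whole mouse hearts, and each matched 1 row. The ratio of Pln to Atp2a2 was followed as well. All 10 passed the filter on low counts, as did 15690 genes in all. Hearts came from male wild-type C57Bl6 mice operated on at 12 weeks of age and collected at 17 weeks. IR edit hearts (n = 4) underwent ischaemia and reperfusion (IR, blocked and restored blood flow) and received a functional editing system for CaMKIIδ, a calcium-dependent kinase. IR virus hearts (n = 3) underwent IR and received a control virus, and IR hearts (n = 3) underwent IR and received no injection. Sham hearts (n = 3) had sham surgery and no injection. The kind and dose of virus, the promoter and the cells reached are not given in the labels, and nothing there says whether 1 library is 1 animal. If it is not, p-values measure a spread that may be technical. Each library is called a heart below.

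In a heart muscle cell each beat starts with calcium entering from outside, which opens the ryanodine receptor of the sarcoplasmic reticulum (SR), the store that releases most of the calcium. SERCA2, the pump encoded by Atp2a2, returns calcium to the store, and phospholamban, encoded by Pln, holds the pump back until it is phosphorylated. CaMKII phosphorylates phospholamban and the ryanodine receptor, so the targeted kinase acts on proteins of this group. Read counts show RNA levels and not phosphorylation. Slc8a1 encodes an exchanger of the outer membrane, not of the store, and Casq1 encodes the calsequestrin typical of skeletal muscle.

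Libraries held 20634820 to 27265276 counted reads, of which 29.7% to 38.5% came from the mitochondrial genome. On the first principal component, with 27.5% of the variance, the scores of IR edit replicates 2 and 4 were -34.0 and -45.1, while those of the remaining 11 hearts ran from -10.2 to 26.5. The 20 cardiomyocyte markers were all tested, and their summed level was 64980 to 70259 CPM (read counts relative to the TMM-scaled library size) in IR edit, 66433 to 71966 in IR virus, 63537 to 66512 in IR and 63069.9 to 71626 in Sham. In IR edit against Sham 5 of the 20 passed as higher (4.61% of all genes did) and 1 as lower (3.4%). Camk2d, the targeted gene, was at 223 ± 17.9 CPM in IR edit (SD, n = 4), 217 ± 18.4 in IR virus, 241 ± 5.42 in IR and 251 ± 45.1 in Sham (n = 3 each). In IR edit against Sham its log2 fold change was -0.17 ± 0.106 (SE), with adjusted p = 0.369 by edgeR. Gene counts do not show edited bases.

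The stretches before the start sites of Casq1, Casq2 and Pln are shown because Casq1 passed the test, its paralogue Casq2 did not, and Pln is the numerator of the ratio. The promoter table from RefSeq (GRCm38.p6, the assembly of mm10) matched 7 of the 10 genes, without Atp2a2, Trdn and Asph. Each sequence is the 250 bases before the annotated start site, 5′ to 3′. The Casq1 stretch is chr1:172219896-172220145 on the minus strand, the Casq2 stretch chr3:102086165-102086414 on the plus strand and the Pln stretch chr10:53337436-53337685 on the plus strand. Capitals mark matches on either strand to an E-box (CANNTG, the letters bound by muscle basic helix-loop-helix factors), a TATA box (TATAAA) or a MEF2 site.
Casq1: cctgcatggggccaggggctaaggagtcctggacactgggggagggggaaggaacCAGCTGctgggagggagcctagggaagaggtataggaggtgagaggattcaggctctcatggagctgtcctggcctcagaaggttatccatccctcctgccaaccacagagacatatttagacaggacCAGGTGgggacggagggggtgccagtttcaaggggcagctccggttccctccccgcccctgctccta
Casq2: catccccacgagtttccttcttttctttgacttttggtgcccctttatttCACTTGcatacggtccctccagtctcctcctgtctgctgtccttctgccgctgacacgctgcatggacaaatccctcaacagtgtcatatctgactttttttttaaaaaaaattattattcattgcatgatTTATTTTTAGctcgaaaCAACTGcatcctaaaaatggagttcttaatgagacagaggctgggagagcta
Pln: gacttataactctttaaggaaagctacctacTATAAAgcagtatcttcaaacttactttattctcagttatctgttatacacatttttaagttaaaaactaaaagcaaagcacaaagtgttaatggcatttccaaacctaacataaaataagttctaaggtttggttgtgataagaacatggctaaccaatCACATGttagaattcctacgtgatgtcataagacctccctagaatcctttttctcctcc
Casq1 held 2 E-boxes, CAGCTG and CAGGTG. Casq2 held 2 E-boxes, CACTTG and CAACTG, and 1 MEF2 match, TTATTTTTAG. Pln held 1 E-box, CACATG, and 1 match to the letters of a TATA box, at -219 to -214 from the start site. No matches overlapped. Of all 32841 promoter stretches of this length, 66.2% held an E-box, 12.4% a TATA box and 2.92% a MEF2 match, so the E-boxes are common letters. GC content was 61.6% for Casq1, 41.6% for Casq2 and 32.8% for Pln.

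Per kilobase of exon (merged exons of GENCODE M21), Atp2a2 was the highest of the 10 genes and Pln the next in all 13 hearts. Atp2a2 stood at 1881 ± 309 CPM per kb in IR edit (SD, n = 4), 2247 ± 24.1 in IR virus, 2245 ± 213 in IR and 2635 ± 107 in Sham (n = 3 each). Pln stood at 762 ± 148 in IR edit, 782 ± 80.2 in IR virus, 875 ± 6.67 in IR and 1014 ± 104 CPM per kb in Sham. Casq2 (368 to 494 CPM per kb over all hearts) and Hrc (287 to 522) overlapped and filled the next 2 places in all 13 hearts. Ryr2 (59.6 to 89.4), Trdn (49.5 to 81.3) and Jph2 (47.7 to 72.8) overlapped as well. Asph (15.0 to 18.5 CPM per kb) and Slc8a1 (9.08 to 14.3) came next. Casq1 (3.33 to 15.5) was the lowest in 11 of 13 hearts, and its range overlapped those of Slc8a1 and Asph. The genes took 7 different orders in the 13 hearts, through swaps within these overlapping ranges. Asph and Trdn have long alternative exons, so their levels per kb of merged exon may understate the forms made in heart. The same may hold for Ryr2 and Slc8a1, with 28790 and 18807 bases of merged exon.

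**Figure D1:**
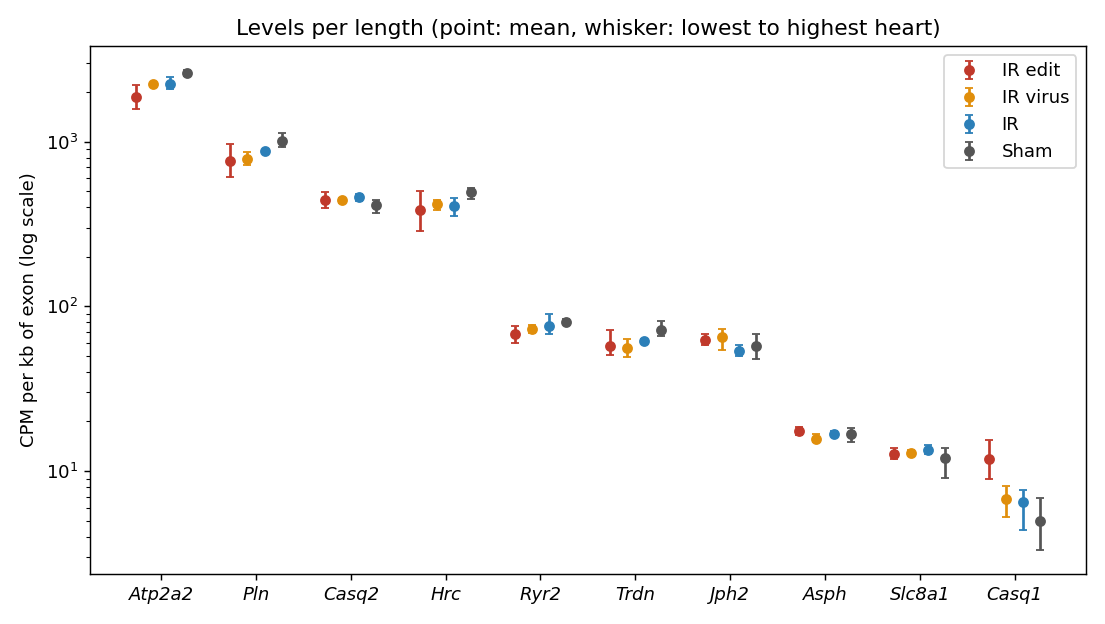
Mean level in CPM per kb of merged exon (log axis) for the 10 genes in IR edit, IR virus, IR and Sham hearts, with whiskers from the lowest to the highest heart (n = 4, 3, 3 and 3). Atp2a2 and Pln lie above the other genes in every group, and Casq1 is the lowest by mean in every group, its IR edit mean of 11.9 lying close to the Slc8a1 mean of 12.7.

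Atp2a2 (chr5:122453513-122502225 of mm10, minus strand) encodes SERCA2. Gene positions here are those of GENCODE M21. Its level was 12676, 10046, 13402 and 9639 CPM in IR edit replicates 1 to 4, 13539, 13824 and 13622 in IR virus, 12747, 13064 and 15137 in IR, and 16116, 16619 and 15332 in Sham. All 10 hearts with IR lay below every Sham heart, although IR replicate 3 came close to Sham replicate 3. Of all genes tested, 1.67% had all hearts with IR below Sham. Atp2a2 fell in IR edit against Sham by 0.49 ± 0.114 (SE) on the log2 scale, 0.714 times the Sham mean (adjusted p = 0.0201, edgeR). Against Sham its log2 fold change was -0.23 ± 0.123 in IR virus (adjusted p = 0.384) and -0.23 ± 0.123 in IR (0.66), neither past the threshold. IR edit lay below IR virus in every heart, at a log2 fold change of -0.26 ± 0.115 that did not pass (adjusted p = 0.31, 95% interval -0.50 to -0.01). Against IR it was -0.25 ± 0.115 (adjusted p = 0.324), with the groups overlapping. Between IR virus and IR the log2 fold change was 0.0013 ± 0.123.

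The Atp2a2 call in IR edit was lost when some single libraries were left out, while the log2 fold change stayed between -0.57 and -0.41 with any 1 library left out. It was lost without IR edit replicate 2 (log2 fold change -0.43, adjusted p = 0.0707 by edgeR) or 4 (-0.41, 0.0521). It was also lost without Sham replicate 1 (-0.49, 0.063) or 2 (-0.46, 0.0615), and in a fit of only IR edit and Sham (-0.49, 0.0957). Without IR edit replicates 2 and 4 together the log2 fold change was -0.30 (adjusted p = 0.169). These replicates stand apart by their values in these data and not by any label. They held the lowest Atp2a2, so leaving them out had to lessen the fall, and it left 2 IR edit hearts. With a block on replicate number the log2 fold change was -0.42, and the call was lost as well (adjusted p = 0.0522). With libraries scaled to the cardiomyocyte markers it was -0.53 (adjusted p = 0.0192). That scaling also moved the median log2 fold change of all genes by -0.045. In whole hearts, fewer cells of a type and less RNA per cell cannot be told apart.

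Pln (chr10:53337667-53345987, plus strand) encodes phospholamban. Its level was 2077, 1969.7, 2667 and 1697 CPM in IR edit, 1989.7, 2073 and 2407 in IR virus, 2397, 2433 and 2410.2 in IR, and 2575, 2694 and 3120.2 in Sham. All hearts with IR except IR edit replicate 3 lay below the 3 Sham hearts. The log2 fold change against Sham was -0.41 ± 0.125 in IR edit (adjusted p = 0.0556, edgeR), -0.37 ± 0.134 in IR virus (0.235) and -0.21 ± 0.134 in IR (0.704), none past the threshold. Without IR edit replicate 3 it passed in IR edit at -0.55 (adjusted p = 0.0023), as it did with DESeq2 at -0.41 (0.022). Leaving out that heart also raised the number of all genes called from 1257 to 2351. Other settings weakened the fall. Without IR edit replicates 2 and 4 together the log2 fold change was -0.24 (adjusted p = 0.482, edgeR). Without Sham replicate 3 it was -0.33 (0.1995), and in a fit of only IR edit and Sham it was -0.42 (0.159). Between IR edit and IR virus it was -0.04 ± 0.126, with a 95% interval of -0.30 to 0.23. In the annotation, Pln shares 141 exon bases with Cep85l on the opposite strand. Cep85l had 720 to 1116 reads in these libraries and Pln 41946 to 68185, and the labels do not say whether counting used the strand. Another gene of the opposite strand, Gm47644, shares 1644 exon bases with Pln and is not among the 53278 symbols counted.

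**Figure D2:**
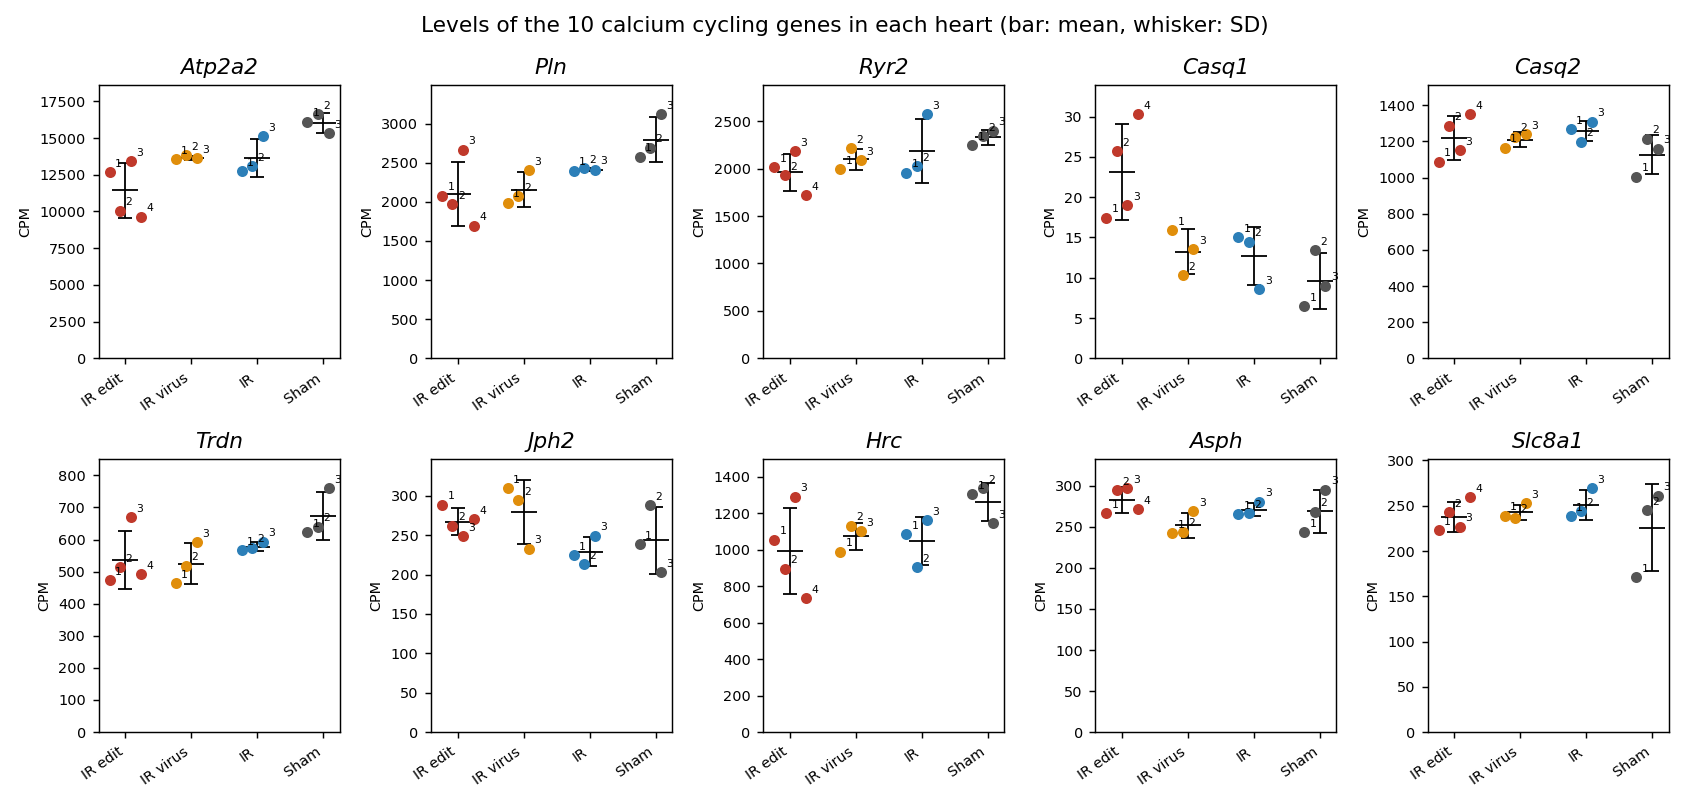
Level in CPM of each of the 10 genes in every heart (points, numbered by replicate) in IR edit, IR virus, IR and Sham, with the group mean as a bar and the SD as a whisker (n = 4, 3, 3 and 3). All hearts with IR lie below the Sham hearts for Atp2a2, and the 4 IR edit hearts lie above the other 9 for Casq1.

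The ratio of Pln to Atp2a2 needs no library scaling and did not pass a test in any of the 6 comparisons. Per 100 Atp2a2 reads there were 16.4, 19.6, 19.9 and 17.6 Pln reads in IR edit, 14.7, 15.0 and 17.7 in IR virus, 18.8, 18.6 and 15.9 in IR, and 16.0, 16.2 and 20.4 in Sham. The groups overlapped in all 6 comparisons. Group means were 18.4 ± 1.67 in IR edit (SD, n = 4), 15.8 ± 1.64 in IR virus, 17.8 ± 1.61 in IR and 17.5 ± 2.46 in Sham (n = 3 each). Corrected for exon length, the ratio was 0.405 ± 0.0369 in IR edit, 0.348 ± 0.0361 in IR virus, 0.392 ± 0.0356 in IR and 0.386 ± 0.0542 in Sham.

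The difference in mean log2 ratio was 0.07 ± 0.131 (SE) for IR edit against Sham (exact two-sided permutation test, p = 0.629, adjusted p = 0.754 over the 6 comparisons). It was -0.15 ± 0.141 for IR virus against Sham (exact permutation p = 0.5, adjusted p = 0.754) and 0.03 ± 0.137 for IR against Sham (p = 1, adjusted p = 1). The widest difference was 0.22 ± 0.107 for IR edit against IR virus (exact permutation p = 0.143, adjusted p = 0.6). It was 0.05 ± 0.102 for IR edit against IR (exact permutation p = 0.6, adjusted p = 0.754) and -0.17 ± 0.115 for IR virus against IR (p = 0.2, adjusted p = 0.6). The smallest p this test can give is 0.0286 with 4 hearts against 3 and 0.1 with 3 against 3. In IR edit against Sham, where Atp2a2 fell and Pln missed the threshold, the ratio differed by less than the spread between hearts.

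**Figure D3:**
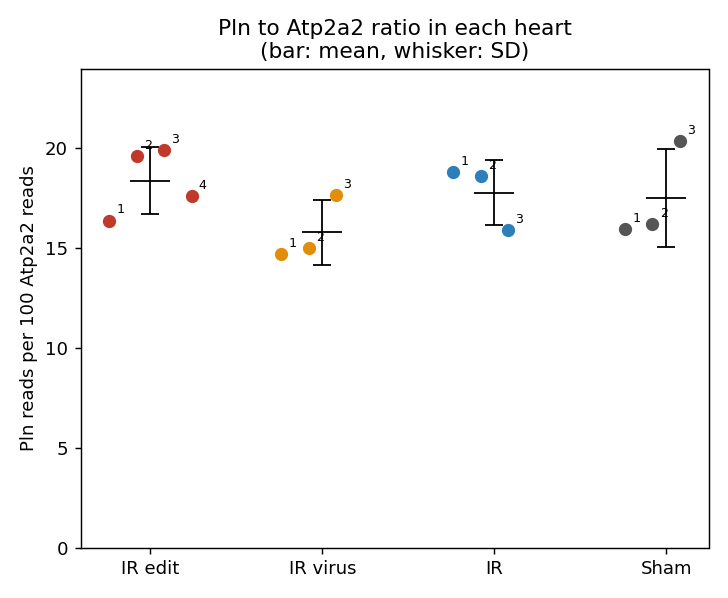
Pln reads per 100 Atp2a2 reads in each heart (points, numbered by replicate) in IR edit, IR virus, IR and Sham, with the mean as a bar and the SD as a whisker (n = 4, 3, 3 and 3). The groups overlap, and the Sham hearts alone span 16.0 to 20.4.

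Ryr2 (chr13:11553102-12106945, minus strand) encodes the ryanodine receptor, the release channel of the SR. Its level was 2016, 1930.5, 2182 and 1717 CPM in IR edit, 1993, 2215 and 2089.5 in IR virus, 1956, 2023 and 2573 in IR, and 2247, 2345 and 2401 in Sham. IR edit and IR virus hearts lay below Sham in every heart, while IR replicate 3 was the highest of all 13 hearts. The log2 fold change against Sham was -0.25 ± 0.102 in IR edit (adjusted p = 0.149, edgeR), -0.15 ± 0.109 in IR virus (0.516) and -0.09 ± 0.109 in IR (0.865).

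Casq1 and Casq2 encode calsequestrins, the proteins that bind calcium inside the store, and only the skeletal type passed. Casq1 is at chr1:172209894-172219868 (minus strand), and Casq2, the cardiac type, at chr3:102086415-102146514 (plus strand). Casq1 was at 17.5, 25.7, 19.0 and 30.3 CPM in IR edit, 15.9, 10.3 and 13.5 in IR virus, 15.0, 14.5 and 8.58 in IR, and 6.49, 13.4 and 9.04 in Sham. All 4 IR edit hearts lay above the other 9 hearts, a pattern shared by 1.77% of all genes tested. Casq1 rose in IR edit against Sham, with a log2 fold change of 1.27 ± 0.258 (SE) and a level 2.4 times the Sham mean (adjusted p = 0.0103, edgeR). It passed whichever single library was left out (largest adjusted p = 0.0429), but without IR edit replicates 2 and 4 together the log2 fold change was 0.92 (adjusted p = 0.144). Those replicates held the highest Casq1, so leaving them out had to lessen the rise. IR edit exceeded IR virus by 0.80 ± 0.25 (adjusted p = 0.128) and IR by 0.87 ± 0.252 (0.114) on the log2 scale, neither past the threshold. Against Sham the log2 fold change was 0.46 ± 0.275 in IR virus (adjusted p = 0.429) and 0.40 ± 0.276 in IR (0.725).

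Casq2 was 1088 to 1351 CPM in IR edit, 1164 to 1240.4 in IR virus, 1198 to 1310.3 in IR and 1006 to 1214 in Sham. These ranges overlapped. Its log2 fold change against Sham was 0.11 ± 0.0887 in IR edit (adjusted p = 0.477, 95% interval -0.07 to 0.30), 0.10 ± 0.0946 in IR virus (0.617) and 0.16 ± 0.0946 in IR (0.684). Casq1 stayed the minor form: per kb it averaged 11.9 CPM in IR edit and 4.94 in Sham, against 446 and 412 for Casq2. Transcripts of Casq2 shared no 50-base stretch with another gene, so reads of that length would not be split between the calsequestrins.

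Skeletal muscle markers were measured beside Casq1. Of the 10 on the list, 4 passed the filter, and their summed level with the other 6 was 17.5 to 25.9 CPM in IR edit, 21.1 to 22.9 in IR virus, 16.8 to 20.4 in IR and 12.1 to 14.3 in Sham. Nearly all of it was Mybpc2, a myosin-binding protein of fast skeletal muscle named here after its values were seen, at 15.4 to 24.4 CPM in IR edit, 19.4 to 21.05 in IR virus, 15.3 to 18.7 in IR and 10.5 to 12.0 in Sham. Of the 4 tested, 1 was called higher in IR edit against Sham. The other 9 markers had at most 20 reads in any library and summed to 1.5 to 2.17 CPM in IR edit and 1.66 to 2.28 in Sham. Of these, the fast troponin gene Tnnc2 was at 0 in 12 of 13 libraries, and the fast myosin genes Myh1, Myh2 and Myh4 had 0 to 4 reads. The part of skeletal muscle RNA in the Casq1 level was not tested.

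**Figure D4:**
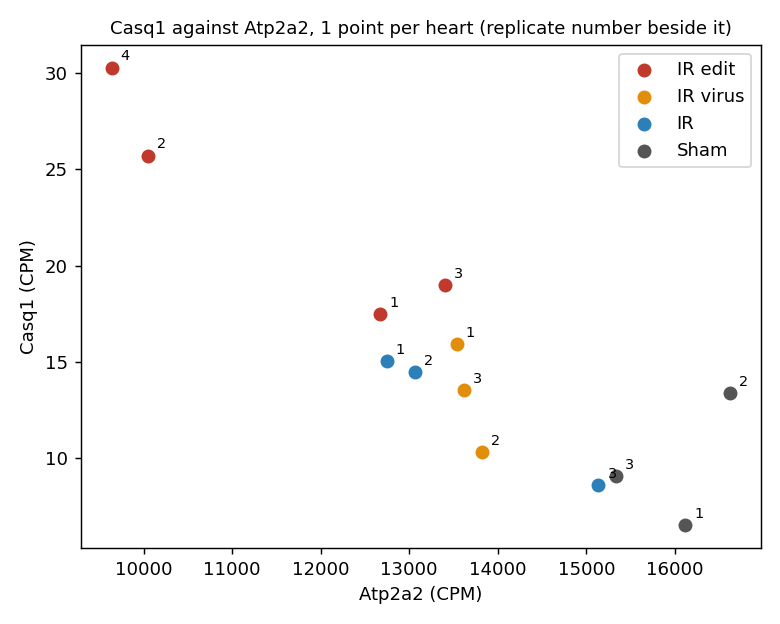
Casq1 level against Atp2a2 level, both in CPM, with 1 point per heart numbered by replicate and coloured by group. IR edit replicates 2 and 4 have the highest Casq1 (25.7 and 30.3 CPM) and the lowest Atp2a2 (10046 and 9639 CPM) of the 13 hearts.

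Trdn, Asph, Jph2 and Hrc encode proteins of the store membrane and lumen that work with the release channel. Trdn (chr10:33080554-33476709, plus strand) encodes triadin, which links calsequestrin to the ryanodine receptor. It was at 473, 514, 670.3 and 491 CPM in IR edit, 463, 519 and 591 in IR virus, 567, 574 and 593 in IR, and 622, 639.8 and 761 in Sham. As with Pln, IR edit replicate 3 was the only heart with IR that reached the Sham range. The log2 fold change against Sham was -0.33 ± 0.117 in IR edit (adjusted p = 0.0991, edgeR), -0.36 ± 0.126 in IR virus (0.222) and -0.22 ± 0.126 in IR (0.676). In IR edit it was -0.46 without replicate 3 (adjusted p = 0.0056) and -0.24 without replicates 2 and 4 together (0.576). Replicate 3 was the highest IR edit heart, and leaving it out raised the number of all genes called from 1257 to 2351.

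Hrc (chr7:45335290-45338974, plus strand) encodes the histidine-rich calcium-binding protein of the SR. It was at 1055, 896, 1291 and 735 CPM in IR edit, 990.4, 1133 and 1101 in IR virus, 1085, 903 and 1161 in IR, and 1304, 1339 and 1146 in Sham. IR edit spanned the widest range, with replicates 4 and 3 at its ends. The log2 fold change against Sham was -0.34 ± 0.147 in IR edit (adjusted p = 0.166, edgeR), -0.23 ± 0.158 in IR virus (0.487) and -0.27 ± 0.158 in IR (0.683). In IR edit it was -0.50 without replicate 3 (adjusted p = 0.0139) and -0.11 without replicates 2 and 4 together (0.839). As for Trdn, replicate 3 was the highest IR edit heart, and without it 2351 genes were called in all, up from 1257.

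Jph2 (chr2:163336242-163397993, minus strand) encodes junctophilin 2, which ties the SR to the outer membrane. Its level was 289, 262, 249 and 270.1 CPM in IR edit, 310.0, 294 and 233 in IR virus, 225, 213 and 249 in IR, and 239, 288 and 203 in Sham. Sham replicate 3 was the lowest heart and IR virus replicate 1 the highest, and the groups overlapped. Its log2 fold change against Sham was 0.14 ± 0.116 in IR edit (adjusted p = 0.526), 0.20 ± 0.124 in IR virus (0.452) and -0.09 ± 0.124 in IR (0.895), by edgeR. IR virus exceeded IR by 0.28 ± 0.124 on the log2 scale (adjusted p = 0.962).

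Asph (chr4:9448069-9669344, minus strand) encodes junctin, the hydroxylase that gives the gene its name and junctate, which gene counts do not separate. It was at 267 to 297 CPM in IR edit, 242 to 269 in IR virus, 266 to 280.5 in IR and 243 to 296 in Sham. Its log2 fold change against Sham was 0.07 ± 0.0773 in IR edit (adjusted p = 0.64), -0.10 ± 0.0825 in IR virus (0.588) and 0.01 ± 0.0825 in IR (0.986), by edgeR. Between IR edit and IR virus it was 0.17 ± 0.0774 (adjusted p = 0.327). Asph shares 2302 exon bases with Clvs1 on the opposite strand, which had 9 to 32 reads, against 5747 to 7184 for Asph.

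Slc8a1 (chr17:81373105-81738377, minus strand) encodes the sodium-calcium exchanger that moves calcium out of the cell. It was at 223, 243, 227 and 259 CPM in IR edit, 239, 237 and 252 in IR virus, 238, 244 and 269.6 in IR, and 171, 245 and 261 in Sham. Sham replicate 1 was the lowest heart and the other 12 lay between 223 and 269.6 CPM. Its log2 fold change against Sham was 0.08 ± 0.114 in IR edit (adjusted p = 0.738), 0.11 ± 0.122 in IR virus (0.701) and 0.15 ± 0.122 in IR (0.776), by edgeR.

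**Figure D5:**
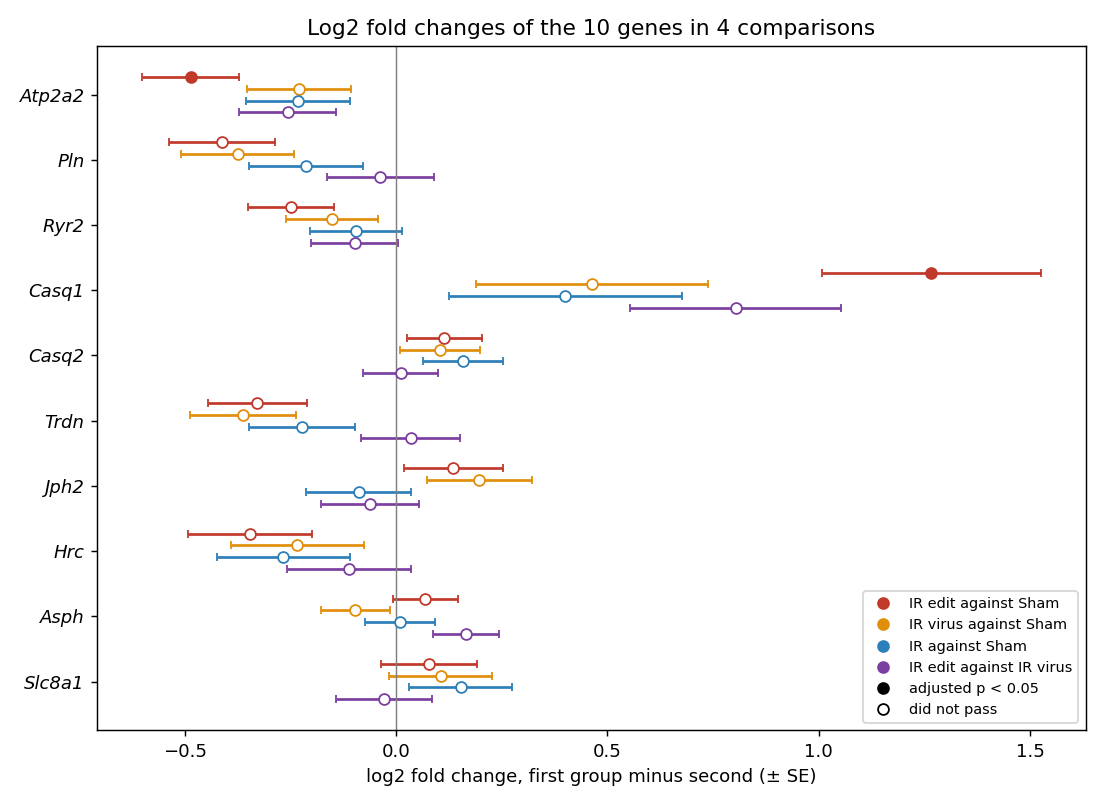
Log2 fold change (first group minus second, whisker ± SE) of the 10 genes for IR edit, IR virus and IR against Sham and for IR edit against IR virus, from edgeR. Filled points passed an adjusted p of 0.05, which holds for Atp2a2 and Casq1 in IR edit against Sham alone.

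Counted together, 1 of the 10 genes rose and 1 fell in IR edit against Sham, where 8.01% of all genes tested were called, 4.61% higher and 3.4% lower. That background moved with the libraries used: 1257 genes were called in all, 478 without IR edit replicate 2 and 2351 without IR edit replicate 3. At an unadjusted p under 0.05 there were 6, beside 23.6% of all genes. The median log2 fold change of the 10 was -0.09, and that of all genes -0.0015. In IR virus against Sham edgeR called 0 of the 10 (0.0127% of all genes), with 2 at an unadjusted p under 0.05 (Pln and Trdn, beside 15.4% of all genes) and 0 by DESeq2. In IR against Sham it called 0 (0.0127% of all genes), with 0 at an unadjusted p under 0.05 (beside 8.33%) and 0 by DESeq2. The medians were -0.12 in IR virus and -0.09 in IR, beside 0.01 and 0.00098 for all genes. These 3 comparisons share the 3 Sham hearts, so their values stand side by side and are not independent.

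Separation of the hearts needs no model. In IR virus against Sham, 5 of the 10 genes (Atp2a2, Pln, Ryr2, Trdn and Hrc) had every IR virus heart below every Sham heart, beside 10.3% of all genes, and 0 had every heart above, beside 11% of all genes. In IR against Sham this held for 3 below (Atp2a2, Pln and Trdn, beside 6.45%) and 0 above (7.94%). In IR edit against Sham it held for 2 below (Atp2a2 and Ryr2, beside 8.18%) and 1 above (Casq1, 8.22%). Against IR virus, IR edit hearts were all lower for Atp2a2 (7.07% of all genes) and all higher for Casq1 (6.83%). Against IR they were all higher for Casq1 (5.97%) and all lower for 0 of the 10 (6.85%), and IR virus against IR had 0 below (6.09%) and 0 above (5.86%).

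The question of what the editing system added is set by IR edit against the other injured hearts. EdgeR called 0 of the 10 genes against IR virus (2.02% of all genes), with 3 at an unadjusted p under 0.05 (Atp2a2, Casq1 and Asph, beside 15.2%) and 0 by DESeq2. Against IR it called 0 (1.42% of all genes), with 2 at an unadjusted p under 0.05 (Atp2a2 and Casq1, beside 14.5%) and 0 by DESeq2. IR virus against IR also had 0 called (0% of all genes), with 1 at an unadjusted p under 0.05 (Jph2, beside 3.84%) and 0 by DESeq2. With 1 library left out, the number of all genes called ran from 96 to 477 in IR edit against IR virus, from 59 to 489 in IR edit against IR and from 0 to 130 in IR virus against Sham. The median log2 fold changes of the 10 genes in IR edit were -0.03 against IR virus and -0.08 against IR, beside -0.0077 and -0.0022 for all genes.

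The 4 IR edit hearts differed widely among themselves for several of these genes. Replicates 2 and 4 held the 2 lowest levels of Atp2a2, Pln, Ryr2 and Hrc, 4 of the 10 genes, beside 23.5% of all genes. They held the 2 highest levels of Casq1, Casq2 and Slc8a1, 3 of the 10, beside 22.2% of all genes. Leaving out both hearts therefore had to lessen the falls and rises of these genes against Sham. The coefficient of variation in IR edit was 16.4% for Atp2a2, 19.4% for Pln and 23.8% for Hrc. For the same genes it was 1.07%, 10.3% and 6.94% in IR virus, 9.51%, 0.762% and 12.6% in IR, and 4.05%, 10.3% and 8.17% in Sham. For Ryr2 the order was different, with 9.86% in IR edit, 5.32% in IR virus, 15.5% in IR and 3.34% in Sham. The summed atrial markers (8 of 8 tested) also differed, at 114 to 479 CPM in IR edit, 276 to 294 in IR virus, 207 to 297 in IR and 56.8 to 143 in Sham. In IR edit replicates 1 to 4 they were at 169, 418, 114 and 479 CPM. The median log2 fold change of these 8 against Sham was -0.29 in IR edit, 0.82 in IR virus and 0.75 in IR. In IR edit the sum therefore did not stand for the typical atrial marker. The summed fibroblast markers (8 of 8 tested) were at 1152 to 2131 CPM in IR edit, 1365 to 1909 in IR virus, 1261 to 1860 in IR and 1037 to 1091 in Sham. In IR edit replicates 1 to 4 they were at 1347, 1743, 1152 and 2131 CPM. In IR edit against Sham 4 of the 8 fibroblast and 1 of the 8 atrial markers were called higher, beside 4.61% of all genes. The part of atrial tissue and fibroblasts in the levels of the calcium genes was not tested.

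Other genes of calcium handling in heart, a list of 58 of which 54 were tested, had 4 higher and 2 lower in IR edit against Sham, beside 8.01% called of all genes. Their median log2 fold change was 0.05 and that of all genes -0.0015. Slc8a3, a sodium-calcium exchanger of the same family as Slc8a1, rose with a log2 fold change of 2.09 ± 0.388 (SE), at an adjusted p of 0.0061 by edgeR. It had 11, 13, 13 and 15 reads in IR edit, 4, 7 and 5 in IR virus, 3, 2 and 2 in IR, and 2, 4 and 3 in Sham. Only its IR edit counts met the filter on low counts, so Slc8a3 was tested because of the group where it is high. Its call is therefore no independent evidence of a rise. Hspb6, a small heat shock protein of muscle, rose by 0.57 ± 0.117 (adjusted p = 0.0111), to 598 ± 108 CPM in IR edit (SD, n = 4), against 405 ± 39.4 in Sham (n = 3). Camk2b, another subunit of the kinase, rose by 0.34 ± 0.0917 (adjusted p = 0.0354), and Itpr1, the IP3-gated release channel, by 0.32 ± 0.0949 (0.0493). Jph1, the junctophilin of skeletal muscle and heart, fell by 0.37 ± 0.101 (adjusted p = 0.0377), and Ppp1r3a, a subunit that brings protein phosphatase 1 to glycogen and the SR, by 0.58 ± 0.16 (0.0383). The injured hearts without editing held similar levels of several of these genes. Camk2b was at 13.98 ± 0.931 CPM in IR edit, 14.5 ± 1.72 in IR virus, 12.8 ± 0.452 in IR and 11.1 ± 0.159 in Sham. Itpr1 was at 72.3 ± 3.73 CPM in IR edit, 68.8 ± 6.61 in IR virus, 67.1 ± 6.38 in IR and 57.9 ± 6.86 in Sham. Jph1 was at 26.4 ± 3.75 CPM in IR edit, 26.5 ± 0.415 in IR virus, 28.4 ± 2.55 in IR and 34.0 ± 2.54 in Sham. Those 3 genes, like Hspb6 and Ppp1r3a, passed in neither IR edit against IR virus nor IR edit against IR. Ppp1r3a was at 218 ± 33.1 CPM in IR edit, 209 ± 24.9 in IR virus, 223 ± 45.6 in IR and 326 ± 77.0 in Sham, and Hspb6 at 517 ± 38.2 in IR virus and 474 ± 6.80 in IR. Without IR edit replicates 2 and 4 together 0 of the 54 passed, and leaving out single libraries gave 2 to 11. With each of the 13 libraries left out in turn, the call was lost 10 times for Jph1 and 9 for Itpr1. It was lost 8 times for Camk2b and 7 for Ppp1r3a, while Hspb6 kept its call in all 13. In a fit of only IR edit and Sham, all of these genes, Hspb6 included, lost the call.

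In the other comparisons edgeR called 1 of the 54, Slc8a3, which rose in IR edit against IR by 2.42 ± 0.408 (adjusted p = 0.0071), where 0.784% of all genes were called higher. Here too Slc8a3 had passed the filter through its IR edit counts alone. With a filter of 1 CPM in 3 libraries 0 of the list were called in that comparison. For IR virus over Sham edgeR called 0 of the list, with 12 of 54 at an unadjusted p under 0.05 (beside 15.4% of all genes) and 1 by DESeq2. For IR over Sham it called 0, with 4 of 54 at an unadjusted p under 0.05 (beside 8.33%) and 0 by DESeq2. For IR edit over IR virus it called 0, with 10 of 54 (beside 15.2%) and 0 by DESeq2. For IR virus over IR it called 0, with 3 of 54 (beside 3.84%) and 0 by DESeq2. For IR edit over IR 11 of the 54 had an unadjusted p under 0.05, beside 14.5% of all genes.

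Among 9677 other genes with a mean of at least 5 CPM, the profile over the 13 hearts most like that of Atp2a2 was that of Retsat, a retinol saturase, then Gcdh, a mitochondrial dehydrogenase of lysine breakdown, and Lysmd4. Their centred log2 profiles differed from Atp2a2 by a root mean square of 0.0771, 0.0793 and 0.0865, beside a median of 0.256 over all candidates. For Pln they were Gm11966, Mut, the methylmalonyl-CoA mutase, and B230118H07Rik (0.0661, 0.0673 and 0.0675, median 0.261). For Casq1 they were Fbn1, which encodes fibrillin, Lhfpl2 and Ckap4 (0.231, 0.264 and 0.271, median 0.612).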

How the data were processed

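RNA of whole mouse hearts was sequenced in 13 KAPA mRNA HyperPrep libraries, per the labels. Raw counts of reads for each symbol were deposited by the authors, with a file for every library. The submitters' processing notes list FastQC 0.11.8, Trimmomatic 0.39, HISAT2 2.1.0, featureCounts 1.6.2 and build mm10. The sources used here give neither annotation nor strand setting. Groups came from the sample titles.

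Counts were analysed in R 4.3.3 with edgeR 4.0.16: TMM scaling, filterByExpr (15690 of 53278 genes kept), and a quasi-likelihood fit of all 13 libraries with a mean per group. P-values were adjusted (Benjamini-Hochberg) over all genes tested, with a threshold of 0.05. The standard error (SE) is the log2 fold change over the square root of F. Levels are TMM-scaled CPM. The Pln to Atp2a2 ratio was tested on log2 ratios of counts by exact two-sided permutation over hearts. Alternatives included DESeq2 1.42.0, other scalings and filters, and libraries left out. Same-group libraries differed by 4.65 to 53.8 times sampling noise (chi-square per gene), so no library was counted as deposited more than once. Separate libraries of 1 animal would not be detected this way. The fit was tested on simulated data with planted changes larger than most of those reported here. That test therefore does not show how often the fit finds small changes.

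The 10 genes and all lists were chosen with earlier results of these data known. Besides the 10 genes and Camk2d, the text names the calcium handling genes that passed with the 4 smallest p per direction and the 3 genes of most similar profile.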

Additional observations from a re-analysis of the deposited data

Results flagged for a closer look

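In IR edit (n = 4) the summed macrophage markers had 1 heart apart from the other 3: replicate 3 was at 159 CPM and the others between 222 and 227, a gap of 0.924 of the whole range, which is above Dixon’s limit for 4 values. The other 26 quantities looked at this way in IR edit, the 10 calcium genes and their ratio among them, had no heart apart by this measure, and chance gives about 1 in 20 such cases.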

How the results depend on the processing

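Of the 10 genes, edgeR called 2 in IR edit against Sham. The number was 6 with no filter on low counts, 3 with DESeq2, 1 in a fit of only IR edit and Sham, and 0 without IR edit replicates 2 and 4 together. With 1 library left out it ran from 1 (without IR edit replicate 2 or 4, or Sham replicate 1 or 2) to 5 (without IR edit replicate 3), while all genes called ran from 478 (without IR edit replicate 2) to 2351 (without IR edit replicate 3). With no filter it was 3 in IR virus against Sham, 1 in IR edit against IR virus and 1 in IR edit against IR, each 0 otherwise. The number of all genes called moved too. Over the settings other than 1 library left out, it ran from 158 to 2205 in IR edit against Sham. It ran from 1 to 863 in IR virus against Sham and from 1 to 598 in IR against Sham. For IR edit it ran from 90 to 1018 against IR virus and from 78 to 1021 against IR. Of the other calcium handling genes 6 were called in IR edit against Sham, 1 in the fit of only these groups, 0 without IR edit replicates 2 and 4 together, and 2 to 11 with 1 library left out (11 without IR edit replicate 3). In IR virus against Sham 0 were called, 4 with no filter, 1 with DESeq2 and 1 without IR edit replicates 2 and 4. In IR against Sham 2 were called with no filter, in place of 0. In IR edit against IR virus 3 were called with no filter, and 0 to 1 with 1 library left out. In IR edit against IR 1 was called, 5 with no filter, 0 with a filter of 1 CPM in 3 libraries, 2 with DESeq2, 0 without IR edit replicates 2 and 4, and 0 to 2 with 1 library left out. The causes were not tested.

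The labels do not say whether replicate numbers pair the hearts. Same-numbered hearts had deviations correlated at -0.13 to 0.22, over 0.1 in 4 of 18 pairs. Of the 13 libraries, 6 correlated best with their own number, and IR edit replicate 4 has no same-numbered partner. Differently numbered hearts reached 0.21 (IR virus replicate 2 and IR replicate 3). These values show no clear pairing but cannot exclude it. With a replicate block 1 of the 10 genes and 2 of the other calcium genes were called in IR edit against Sham. Under the block Atp2a2 was at -0.42 (adjusted p = 0.0522, edgeR) and Casq1 at 1.11 (0.0346). The log2 fold changes that changed sign under the block were Pln (0.048) and Casq2 (-0.043) in IR edit against IR virus and Hrc (0.039) in IR edit against IR.

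All other sign changes were of small log2 differences that passed no test. With libraries scaled to cardiomyocyte markers they were Pln (0.0036) and Slc8a1 (0.015) in IR edit against IR virus, and Atp2a2 (-0.10), Casq1 (-0.028) and Hrc (-0.065) in IR virus against IR. Atp2a2 in IR virus against IR was also -0.0023 with DESeq2 and with its size factors, and -0.0050 with no filter. Asph in IR against Sham was -0.0024 with no filter. Without IR edit replicates 2 and 4, in IR edit, Casq2 was -0.0080 and Slc8a1 -0.0041 against Sham, Pln 0.14, Casq2 -0.11 and Hrc 0.13 against IR virus, and Hrc 0.16 against IR. The ratio of Pln to Atp2a2 by group medians was -0.0035 in IR edit against IR.

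With 1 library left out, the log2 ratio of Pln to Atp2a2 ran from -0.031 to 0.10 in IR edit against IR and from -0.035 to 0.14 in IR against Sham. Log2 fold changes that crossed 0 ran, in IR edit against Sham, from -0.092 to 0.20 for Slc8a1 and -0.0023 to 0.14 for Asph. In IR virus against Sham Slc8a1 ran from -0.069 to 0.22. In IR against Sham they were -0.021 to 0.27 for Slc8a1, -0.066 to 0.079 for Asph and -0.21 to 0.049 for Jph2. In IR edit against IR virus they were -0.17 to 0.064 for Pln, -0.031 to 0.074 for Casq2, -0.061 to 0.014 for Slc8a1, -0.087 to 0.13 for Trdn, -0.18 to 0.020 for Jph2 and -0.26 to 0.019 for Hrc. In IR edit against IR they were -0.090 to 0.015 for Casq2 and -0.23 to 0.050 for Hrc. In IR virus against IR they were -0.045 to 0.083 for Atp2a2, -0.13 to 0.078 for Ryr2, -0.15 to 0.21 for Casq1, -0.081 to 0.0084 for Slc8a1 and -0.064 to 0.11 for Hrc.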
